A study of Mus musculus with 8 samples.

Results

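The 8 arrays of the series were of RNA from granulocytic myeloid-derived suppressor cells (Gr-MDSCs), but they differed widely in RNA of epithelial genes, and that difference is described here gene by gene. Arrays were grouped by a measured value, the log2 signal of Krt8, and not by treatment. The Krt8 probe set with the highest mean over the arrays read 12 or more on 2 arrays, called Krt8-high, and under 9 on 3 arrays, called Krt8-low, so that 5 of the 8 arrays were compared and 3 fell in neither group. The Krt8-high arrays were Dasatinib replicate 1, at 13.37, and DMSO replicate 5, at 13.31. The Krt8-low arrays were Dactolisib replicate 2, at 8.09, Dasatinib replicate 2, at 8.30, and DMSO replicate 3, at 8.33. The arrays in neither group were Dactolisib replicate 1, at 9.88, DMSO replicate 4, at 10.17, and DMSO replicate 2, at 10.43. The value nearest the upper limit on its outer side was thus 10.43 and the one nearest the lower limit was 9.88. Arrays are named below by treatment and replicate number, as in Dasatinib 1.

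All cells came from prostate tumors of male mice aged 12 to 16 weeks that carried PB-Cre, in which the probasin promoter drives Cre recombinase in prostate epithelium, with floxed alleles that include p53 (p53L/L) and Smad4 (Smad4L/L). The mTmGL/+ and LSL-LucL/+ reporters were also carried, and every group shared the whole genotype. Mice were castrated at a tumor size of 150 mm3 and received enzalutamide, an antagonist of the androgen receptor, in the diet for 4 weeks, and Gr-MDSCs were then taken from the tumors with magnetic beads. Cells were exposed ex vivo for 6 h to 0.1 uM Dactolisib, an inhibitor of PI3K and mTOR, to 0.1 uM Dasatinib, an inhibitor of SRC-family and ABL kinases, or to DMSO as the control. Treatments were read from the sample titles, since the treatment field of both Dasatinib samples reads Dactolisib, and whether the arrays came from separate mice was not stated. Because each Krt8 group mixed treatments, the difference within Dasatinib (Dasatinib 1 minus Dasatinib 2) and within DMSO (DMSO 5 minus DMSO 3) is given beside the group difference.

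Keratin 8 pairs with keratin 18 in the filaments of simple epithelia, and claudin 4 seals tight junctions between epithelial cells. Svs2 and Svs5 encode major secretory proteins of the seminal vesicle, a gland that lies against the prostate and depends on androgen. Gr-MDSCs belong to the neutrophil lineage and carry its calcium-binding proteins, granule enzymes and surface receptors, and none of the epithelial genes above is part of that program.

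The largest differences lay in seminal vesicle genes, some of which sit together in the genome. In the RefSeq annotation of GRCm38.p6, Svs2, Svs3a, Svs3b, Svs4, Svs5 and Svs6 lie within chr2:164235929-164334394, a stretch of 98.5 kb. The 250 bases before the start of Svs2 (chr2:164238342-164238591, minus strand), Svs4 (chr2:164278308-164278557, minus strand) and Svs5 (chr2:164332515-164332764, plus strand) are printed because these were the cluster's members called below, with Krt8 (chr15:102004343-102004592, minus strand) as the gene that grouped the arrays. They were taken from RefSeq with build GRCm38.p6, run 5′ to 3′ on the gene's strand and show TATAAA, the letters of the TATA box, in capitals where either strand holds them.
Svs2: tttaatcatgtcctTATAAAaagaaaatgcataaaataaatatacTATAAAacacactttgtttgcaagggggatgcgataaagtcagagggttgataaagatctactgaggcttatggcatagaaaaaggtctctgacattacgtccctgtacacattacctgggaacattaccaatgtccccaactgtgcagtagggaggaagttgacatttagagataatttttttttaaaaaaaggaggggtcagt
Svs4: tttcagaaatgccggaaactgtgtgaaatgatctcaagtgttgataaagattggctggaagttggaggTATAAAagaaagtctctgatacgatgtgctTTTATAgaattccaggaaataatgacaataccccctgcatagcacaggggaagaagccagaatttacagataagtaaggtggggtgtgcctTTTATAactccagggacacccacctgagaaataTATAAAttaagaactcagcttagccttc
Svs5: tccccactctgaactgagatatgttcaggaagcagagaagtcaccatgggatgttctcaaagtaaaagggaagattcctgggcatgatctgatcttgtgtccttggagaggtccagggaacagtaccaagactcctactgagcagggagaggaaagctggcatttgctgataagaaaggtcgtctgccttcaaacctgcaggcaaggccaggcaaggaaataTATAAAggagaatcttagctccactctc
Krt8: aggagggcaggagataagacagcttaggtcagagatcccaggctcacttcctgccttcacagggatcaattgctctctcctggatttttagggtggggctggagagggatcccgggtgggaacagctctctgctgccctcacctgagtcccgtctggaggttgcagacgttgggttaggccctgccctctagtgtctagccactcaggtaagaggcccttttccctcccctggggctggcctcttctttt
TATAAA was searched alone, on both strands, and 12.4% of the 32851 promoters in the RefSeq table held it in the same 250 bases. Svs4 and Svs5 each held it 28 bases before the start and Svs2 held it no nearer than 205 bases, while these letters were not in the Krt8 window.

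Values are the authors' log2 signals of the probe sets of an Affymetrix mouse genome array, and where several probe sets matched a gene and no other, the brightest by mean over the 8 arrays stood for it. Probe sets with a mean of at least log2 3.98 over the 8 arrays were kept, which left 30024 probe sets and 14237 genes. A gene's call is that of its brightest probe set alone, and its other probe sets did not always share it. The gap of a gene is the distance on the log2 scale between the lowest array of the higher group and the highest array of the lower group, and a gene was called where the gap was at least 1, a doubling. No p-value is given for any gene, because the same arrays' values formed the groups, and 2 arrays against 3 could not reach an exact p below 0.1 in any case. By this rule 1993 probe sets were higher on the Krt8-high arrays (6.64% of those kept) and 179 were lower (0.596%). Counted by gene, 1147 were higher (8.06%) and 80 were lower (0.562%). Groups that did not overlap, with no minimum gap, were far more common, with 4175 genes above (29.3%) and 5959 below (41.9%), and these shares are the background for every list below.

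The called differences were lopsided in size as well as number. Among the 1147 genes called higher the median difference of group means was 1.997 on the log2 scale, 426 had a gap of 2 or more and 75 a gap of 4 or more. Among the 80 called lower the median difference was -1.38, the widest gap was -1.99, and 9 passed a gap of 1.5. Of the genes called higher, 415 had a mean under log2 5 on the Krt8-low arrays, near the bottom of the scale, and 73 would have missed the filter on the other 6 arrays alone. The split between directions rested on how arrays were set against each other. Centring each array on its granulocyte marker genes gave 6259 probe sets higher and 4 lower, moved the share of higher calls from 91.8% to 99.9%, and moved the median difference of all genes from -0.12 to 0.84. The signs of the median differences of 19 of 44 gene lists turned from negative to positive with that centring, so every "lower" below is relative to the whole array. Probe sets called lower numbered 757 without Dasatinib 1 and 403 without DMSO 5, against 179 with neither left out. Leaving out an array can only keep or add calls under this rule, so nothing is read from that rise.

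**Figure D1:**
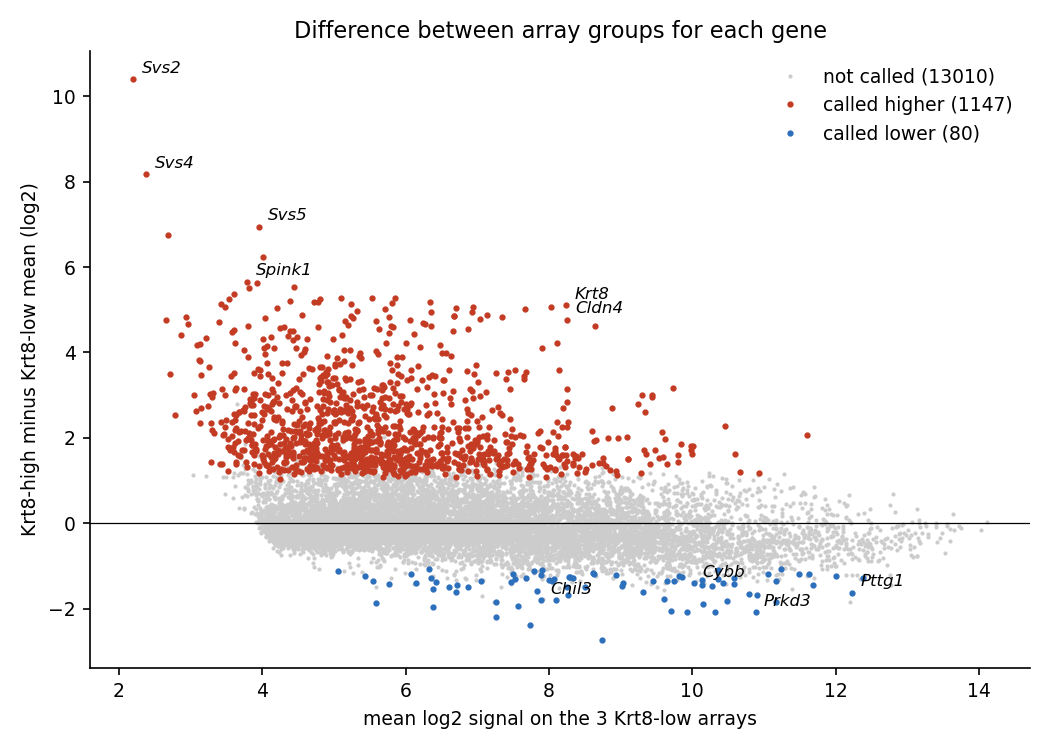
Difference of group means (log2, vertical axis) against the mean log2 signal on the 3 Krt8-low arrays (horizontal axis) for each of 14237 genes; red points are the 1147 genes called higher, blue points the 80 called lower and grey points the rest. Red points reach a difference of 10.41 at Svs2, while no blue point lies below -2.73.

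Some array quality values differed between the groups. The array medians of all probe sets ran from 4.82 to 4.87 over the 8 arrays. The 3′ minus 5′ signal of the Gapdh control was -0.19 on Dasatinib 1 and -0.08 on DMSO 5, against -0.11 to -0.08 on the Krt8-low arrays, and that of Actb was 0.06 and 0.05 against 0.08 to 0.15. The 18S ribosomal RNA control read 11.91 on both Krt8-high arrays and 12.10 to 12.41 on the Krt8-low arrays. The hybridisation spikes read 9.49 and 9.33 against 9.52 to 9.70, and the 3′ Gapdh control itself 12.40 and 12.79 against 12.91 to 12.95. The groups did not overlap in the Actb, 18S, hybridisation spike and 3′ Gapdh values, and their part in the results was not tested. Smad4, a floxed gene that recombines only where Cre is active, read 9.16 and 9.24 on the Krt8-high arrays and 9.35 to 9.54 on the Krt8-low arrays.

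Svs2 read 12.12 on Dasatinib 1 and 13.09 on DMSO 5, against 2.16, 2.29 and 2.15 on Dactolisib 2, Dasatinib 2 and DMSO 3. The group means differed by 10.41 on the log2 scale, and with the Krt8-low values near the floor of the array this figure depends on that floor. Svs4 read 9.26 and 11.87 against 2.49, 2.23 and 2.44, and Svs5 read 8.70 and 13.11 against 4.04, 3.92 and 3.92. All 3 genes were at the Krt8-low level on the arrays in neither group, where Svs2 read 2.02 to 2.20. Pate4, a small secreted protein of the seminal vesicle, read 8.35 and 10.50 against 2.62 to 2.78, and Spink1, a trypsin inhibitor secreted into seminal plasma, read 9.69 and 9.21 against 3.70 to 3.90.

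Of the 17 seminal vesicle secretory genes listed, 13 had a single-gene probe set and 10 passed the filter. Of these 10, 6 were called higher and none lower, and their median difference was 4.59. All 6 had a mean under the filter on the other 6 arrays and so passed it only through the arrays where they were high, which fixes part of this count and median, and nothing is read from them. The called members were Svs2, Svs4, Svs5, Pate4, Spink1 and Defb42, and Defb42, a beta-defensin named after its value was seen, read 6.28 and 8.56. Among the other 7 genes with a probe set, Svs6 read 6.48 on DMSO 5 and 2.68 on Dasatinib 1, and Svs3a read 5.88 and 3.83. Both were named after their values were seen. The median of the 10 genes was 7.32 on Dasatinib 1 and 8.89 on DMSO 5, with 3.86 to 4.02 on the Krt8-low arrays and 3.75 to 3.98 on the arrays in neither group. DMSO 5 was the higher of the Krt8-high arrays in 9 of the 10 genes. In bulk RNA, fewer cells of a type and less RNA per cell cannot be told apart, and this holds for every gene group that follows.

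**Figure D2:**
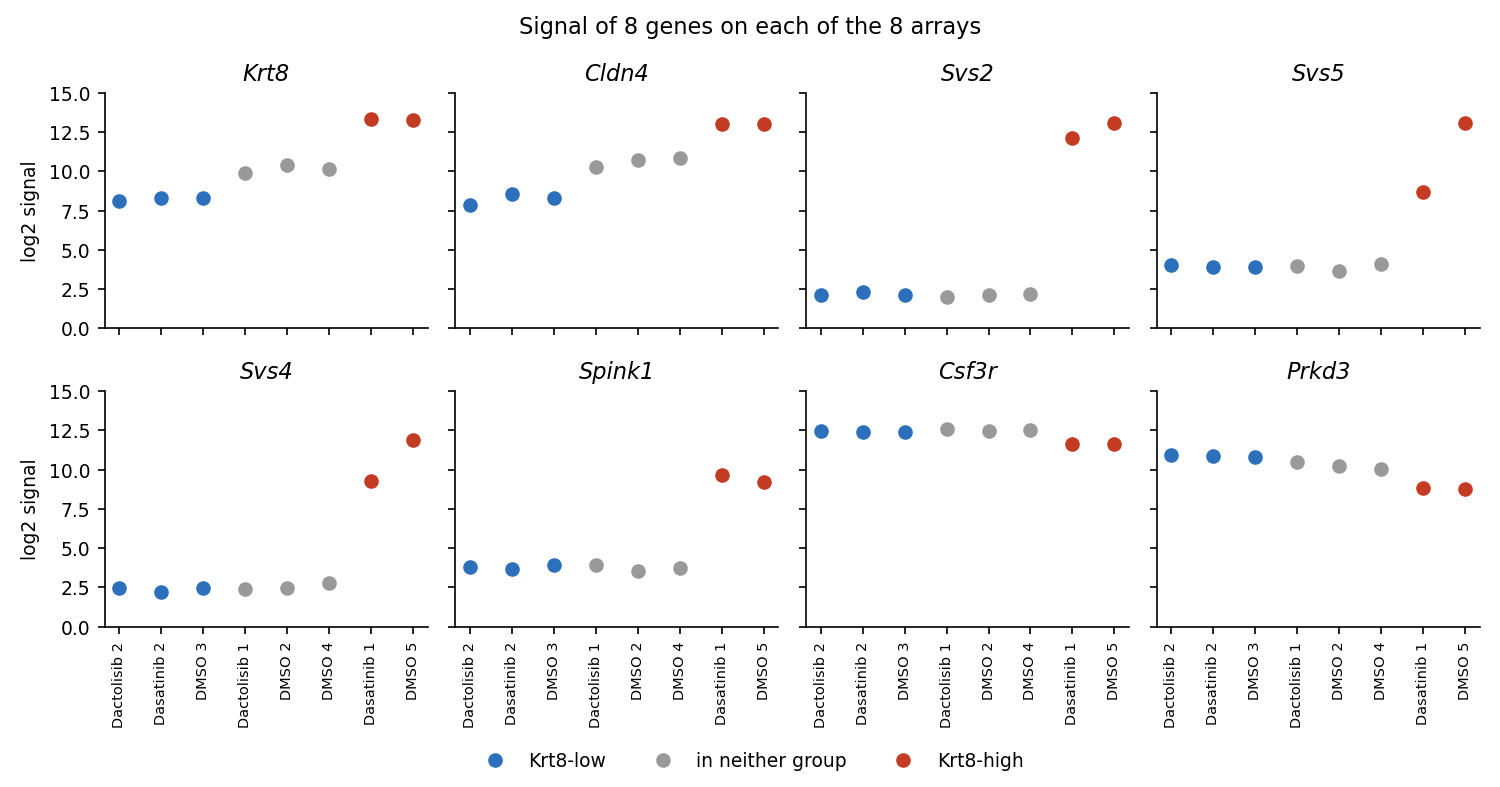
Log2 signal (vertical axis, 0 to 15) of 8 genes on each of the 8 arrays, with Krt8-low arrays in blue, arrays in neither group in grey and Krt8-high arrays in red; each point is 1 array. Krt8 and Cldn4 rise in 3 steps, Svs2, Svs5, Svs4 and Spink1 are high only on Dasatinib 1 and DMSO 5 among these 8 arrays, and Csf3r and Prkd3 are lowest there.

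Genes of the prostate itself were also among the calls. Of 34 prostate luminal and androgen-regulated genes listed, 20 passed the filter, 9 were called higher and none lower, and the median difference was 0.79. Of the 9 genes, 4 had a mean under the filter on the other 6 arrays, among them Spink1 and Pate4, which stood on both lists. These 4 passed it only through the arrays where they were high, which fixes part of the count and of the list's medians. 9530002B09Rik read 9.46 and 9.67 against 3.88, 3.78 and 4.12. Clu, the secreted chaperone clusterin, read 13.26 and 13.28 against 8.44, 8.58 and 8.92, and the arrays in neither group lay between, at 10.38 to 10.60. Hoxb13, a homeobox factor of the posterior prostate, read 6.18 and 5.74 against 3.71 to 4.11, and Tmprss2, an androgen-regulated surface protease, read 7.79 and 7.93 against 5.11 to 5.31. Psca, a surface antigen of prostate and bladder epithelium, read 9.68 and 9.20 against 6.50 to 6.79 but was highest on the arrays in neither group, at 11.32 to 11.34. Hoxb13, Tmprss2 and Psca were named after their values were seen, and the probasin gene Pbsn was below the filter. The median of the 20 genes was 7.56 and 7.77 on the Krt8-high arrays, 5.49 to 5.60 on the Krt8-low arrays and 5.80 to 5.84 on the other 3.

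Simple epithelial identity genes were higher on the Krt8-high arrays nearly throughout. Of 38 genes listed, 36 passed the filter, 26 were called higher and none lower, and the median difference was 3.08. Without overlap 34 lay above, against 29.3% of all genes. These counts include Krt8, whose call the grouping itself fixed. Krt18, the partner of Krt8, read 12.72 and 12.62 against 7.46, 7.77 and 7.78. Krt19, a small keratin of ducts and glands, read 12.07 and 11.92 against 6.82 to 7.01. Tmem30b, a subunit of lipid flippases, read 9.27 and 9.26 against 4.13, 4.57 and 3.94. The Krt8-high arrays were close to each other in each of these 3 genes, and the arrays in neither group lay between the groups for all of them, with Krt19 at 10.24 to 10.40. Foxa1, a pioneer transcription factor of endodermal epithelium that was named after its value was seen, read 10.11 and 10.09 against 4.92 to 5.48. Epcam, the adhesion molecule used to sort epithelial cells, read 11.93 and 11.83 against 6.79 to 7.18. Krt7, a keratin of ducts, read 10.58 and 10.29 against 5.57 to 5.93 and was at 10.34 to 10.48 on the arrays in neither group, so that the simple keratins were not all intermediate there. Epcam and Krt7 were likewise named after their values were seen.

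Many junction genes followed the same order. Of 23 tight junction genes kept, 16 were called higher and none lower, with a median difference of 2.11. Cldn4 read 13.02 on both Krt8-high arrays and 7.90, 8.55 and 8.30 on the Krt8-low arrays, Cldn7 read 11.51 and 11.53 against 6.11 to 6.55, and Ocln, which encodes occludin, read 9.84 and 10.09 against 4.58 to 4.90. Tjp1, the scaffold ZO-1, read 9.29 and 9.45 against 4.61 to 4.88. Of 20 desmosome and adherens junction genes kept, 12 were called higher and none lower, with a median difference of 1.68. Cdh1, which encodes E-cadherin, read 11.96 and 12.04 against 6.81, 7.44 and 7.16, and Dsg2, a desmosomal cadherin, read 10.44 and 10.14 against 5.27 to 5.36. The desmosomal plaque gene Dsp had the widest spread of these on the Krt8-low arrays, from 5.57 to 6.69, and read 10.65 and 11.02 on the Krt8-high arrays. Pkp2, another plaque protein, was unlike the rest in that the arrays in neither group lay near the Krt8-low level, at 4.22 to 4.71 against 3.66 to 3.87, with 8.46 and 8.36 on the Krt8-high arrays.

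Several of the widest gaps belonged to genes of cell shape and ion movement. Rhpn2 had the widest gap after Svs2 and Svs4, reading 10.14 and 10.35 against 3.73, 4.36 and 3.96. Slc12a2, the sodium-potassium-chloride cotransporter of secretory epithelium, read 11.14 and 11.08 against 5.63 to 6.05. Enah, which extends actin filaments, read 10.37 and 10.41 against 5.20 to 5.32, and the actin-binding Cnn3 read 10.81 and 10.82 against 5.09 to 5.81. Both Krt8-high arrays were nearly equal in these genes. Frmd4b, Gsdmc2 and Tcim completed the genes with the 15 widest gaps, at differences of 5.24, 5.50 and 5.16. Of 24 solute and water transport genes kept, 8 were called higher and none lower, among them the zinc transporter Slc39a8 at 5.26, the amino acid transporter Slc6a14 at 3.98 and the potassium channel Kcnk1 at 3.92.

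Some squamous and basal epithelial genes moved differently from the simple epithelial ones. Of 41 kept, 22 were called higher and none lower, with a median difference of 2.08. That median was 1.12 within Dasatinib and 2.39 within DMSO. Krt17, a keratin of basal and injured epithelium, read 10.14 and 9.80 against 3.60, 5.20 and 4.54. Krt16 read 10.78 and 11.17 against 5.97 to 7.07, and the surface protein Ly6d read 10.34 and 10.65 against 6.40 to 6.66. The Krt8-low arrays differed among themselves here, with Dasatinib 2 the highest of them for Krt16 and Krt17. S100a14, a calcium-binding protein of stratified epithelium, read 9.36 and 9.22 against 5.05 to 5.48, and the arrays in neither group matched the Krt8-high ones, at 9.06 to 9.26.

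That last pattern was common in the list. The position of the arrays in neither group is given on a scale on which 0 is the Krt8-low mean and 1 the Krt8-high mean. The median position was 0.96 for the squamous and basal genes, against 0.44 for the simple epithelial and 0.40 for the tight junction genes. These medians are over all genes kept, called or not, and a position is unsteady where the group means differ little. The 0.01 of the seminal vesicle genes is fixed in part by the filter, as given above, and nothing is read from it. Of the 22 squamous genes called higher, 10 had a position over 0.75 and 7 read higher on the arrays in neither group than on the Krt8-high arrays. Krt13, a keratin of stratified mucosa, read 5.91 on Dasatinib 1 and 8.47 on DMSO 5, 4.24 to 4.60 on the Krt8-low arrays and 10.08, 10.18 and 10.29 on Dactolisib 1, DMSO 2 and DMSO 4. The list's median was 7.61 on Dasatinib 1 and 8.35 on DMSO 5, and 7.78 to 7.86 on the 3 arrays with intermediate Krt8. That median thus did not follow Krt8 across the arrays. Members differed, and Krt17 and Krt16 were intermediate, at positions of 0.30 and 0.58. The basal keratins Krt5 and Krt14, named after their values were seen, were higher on DMSO 5 than on Dasatinib 1, at 10.34 against 8.72 and 11.41 against 9.95, and the arrays in neither group lay between the groups for both.

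**Figure D3:**
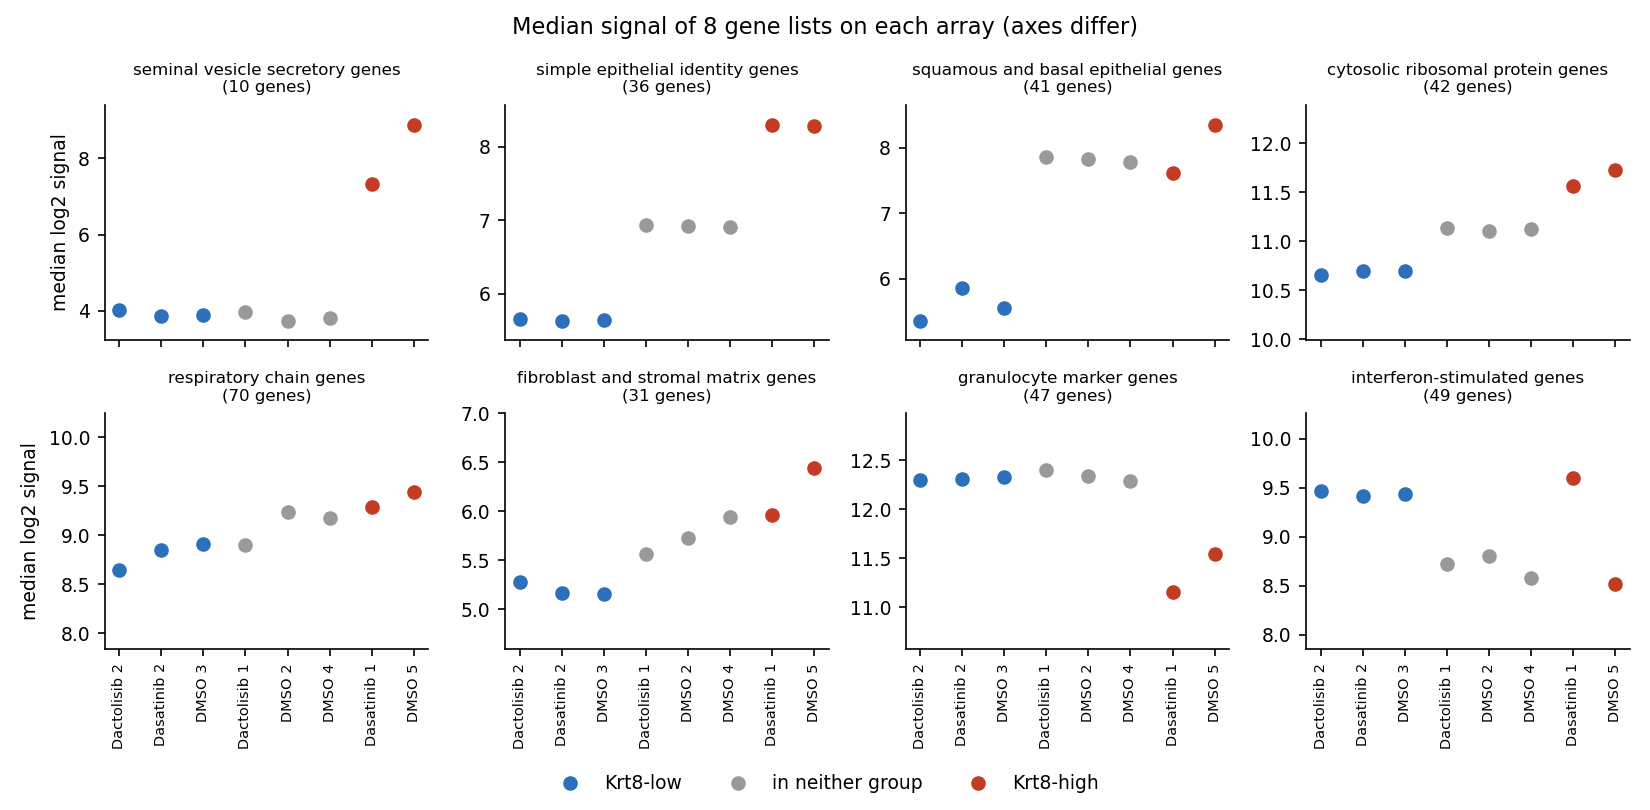
Median log2 signal of 8 gene lists (vertical axes, which differ between panels) on each array, coloured as Krt8-low (blue), in neither group (grey) and Krt8-high (red); each point is the median over the list's genes on 1 array. Seminal vesicle genes are raised on 2 arrays, which the filter fixes in part, and squamous genes on 5. Granulocyte genes are lowest on the 2 Krt8-high arrays, and interferon-stimulated genes are at 9.60 on Dasatinib 1 and 8.52 on DMSO 5.

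Secreted proteins and proteases of epithelium were prominent. Of 41 protease and protease inhibitor genes kept, 19 were called higher and 1 lower, with a median difference of 1.26. Prss23, a serine protease, read 8.64 and 8.47 against 3.58, 3.46 and 3.39. Mmp7, the matrilysin of glandular epithelium, read 11.13 and 11.95 against 6.75, 6.70 and 6.59, and Plat, the tissue plasminogen activator, read 11.58 and 11.28 against 6.79 to 6.97. For Prss23 and Mmp7 the arrays in neither group stayed near the Krt8-low level, at positions of 0.11 and 0.15, while Plat stood at 0.57. Of 32 mucosal secretory and defence genes kept, 11 were called higher and none lower. Pigr, which carries antibody across epithelium, read 11.52 and 11.51 against 6.52 to 6.77, and Wfdc2, a small secreted inhibitor, read 12.11 and 11.51 against 6.91 to 7.16. Clca1, a goblet cell product, read 7.57 and 6.99 against 2.64 to 3.13 and was as high on the arrays in neither group, at 6.90 to 7.02. Cp, the plasma copper carrier ceruloplasmin, differed by 4.04, and in the complement and acute phase list, where 4 of 20 were called higher, Saa1 differed by 2.18 and Lbp by 1.91.

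Growth factors and signalling targets were next. Of 43 cytokine and growth factor genes kept, 12 were called higher and 2 lower, and the list's median was -0.10, close to that of all genes. Hbegf, a ligand of the EGF receptor, read 10.61 and 10.52 against 6.59, 6.67 and 6.45, and Tgfa, another ligand of it, read 8.52 and 8.61 against 5.61, 5.32 and 4.54. Tgfb2 read 8.20 and 7.39 against 4.17 to 4.49, and Lif, a cytokine of the IL-6 family, read 9.43 and 8.47 against 4.97 to 5.46. Tgfb2 and Lif were higher on Dasatinib 1 than on DMSO 5, while both EGF receptor ligands were level. Il33, an alarmin of epithelial nuclei, and Il6 differed by 2.90 and 2.73 and were named after their values were seen. Of 27 TGF-beta and YAP target genes kept, 7 were called higher and 1 lower. The YAP targets Ccn1 and Ccn2 read 11.93 and 11.55 against 6.13 to 7.01, and 8.53 and 8.67 against 4.33 to 4.75, and Ankrd1 read 8.05 and 7.57 against 3.91 to 4.22. The integrin subunit gene Itgb6 differed by 3.62.

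Stress and early response genes were called higher more often than all genes. Of 39 kept, 10 were called higher (25.6%, against 8.06% of all genes) and 1 lower, and the median was -0.02. With no minimum gap 16 lay above and 14 below, against 29.3% and 41.9% of all genes. Hspb1, the small heat shock protein HSP27, read 13.12 and 13.04 against 7.93, 8.20 and 7.94. Cryab, a related chaperone, differed by 3.05, Myc by 3.43 and the AP-1 subunit Fosl1 by 2.93. Of 28 Wnt, Notch and Hedgehog pathway genes, 6 were called higher and none lower, led by the transcription factor Sox4 at 10.59 and 10.17 against 4.62, 5.28 and 5.42. Hes1, a target of Notch, differed by 1.99, the R-spondin receptor Lgr4 by 1.69 and Znrf3, which removes Wnt receptors, by 1.66.

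Basement membrane and stromal genes were split by family. Of 19 epithelial basement membrane and integrin genes kept, 6 were called higher and none lower, with Itga6 at a difference of 3.23, Lama3 at 2.96 and the hemidesmosome collagen Col17a1 at 2.88. For each of these 3 the arrays in neither group lay close to the Krt8-low level, with positions of 0.17, 0.16 and 0.02. Of 31 fibroblast and stromal matrix genes kept, 8 were called higher and none lower, with a median difference of 0.84. Col3a1 read 8.67 and 9.82 against 5.12, 5.23 and 5.80, Col1a2 read 8.76 and 9.72 against 6.82 to 6.87, and Dcn, the proteoglycan decorin, read 8.42 and 7.61 against 5.33 to 5.70. Col3a1 was at 9.02 to 9.29 on the arrays in neither group, and the list's median position was 0.66. Of 12 smooth muscle genes, 3 were called higher, with Tpm2 at a difference of 2.99, Cald1 at 1.72 and Smtn at 1.61. Endothelial genes showed no call among 16 kept and a median difference of 0.00, with Cdh5, the endothelial cadherin, at 4.58 and 4.78 against 4.33 to 4.39.

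Genes of basic metabolism also lay higher on the Krt8-high arrays, by smaller steps. Of 42 cytosolic ribosomal protein genes kept, 7 were called higher and none lower, and the median difference was 0.75. Without overlap 36 lay above, against 29.3% of all genes. Rpl10a, a protein of the large subunit, read 11.61 and 11.81 against 9.68, 9.53 and 9.52, and Rps18, of the small subunit, read 10.73 and 11.18 against 8.80 to 9.05. Of the 77 ribosomal genes listed only 43 had a single-gene probe set, and members of this family share sequence with many pseudogenes, so these values are uncertain. Of 70 respiratory chain genes kept, 12 were called higher and none lower, and the median difference was 0.54. Here 55 lay above without overlap, against the same 29.3%. The complex I genes Ndufc2, Ndufa5, Ndufa4 and Ndufa9 had the widest gaps, with Ndufc2 at 9.68 on both Krt8-high arrays and at 7.23, 7.77 and 7.81 on the Krt8-low arrays. Dactolisib 2 was the lowest array for all 4 of these genes. The list's median was 8.65 on Dactolisib 2, 8.85 on Dasatinib 2 and 8.91 on DMSO 3, and 9.29 and 9.44 on the Krt8-high arrays.

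Secretory and biosynthetic genes gave calls in the same direction. Of 50 endoplasmic reticulum and secretory pathway genes, 9 were called higher and none lower, with a median difference of 0.43. Sec24d, a coat protein of vesicles that leave the endoplasmic reticulum, read 7.51 and 8.03 against 4.82, 5.41 and 5.57, and Rpn1, a subunit of the glycosylation complex, read 9.45 and 9.58 against 6.84, 7.75 and 7.84. All 9 called genes had a position under 0.25 on the arrays in neither group. Of 25 amino acid supply and ATF4 target genes, 4 were called higher, with Psat1, of serine synthesis, at a difference of 3.94, the stress protein Nupr1 at 2.79, the arginine carrier Slc7a1 at 2.22 and Psph at 1.68. Of 30 cholesterol and fatty acid synthesis genes, 6 were called higher and none lower. Scd1 and Scd2, which desaturate fatty acids, differed by 3.36 and 3.63, Elovl7 by 2.15 and Sqle by 1.70.

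Of 32 glutathione and NRF2 target genes kept, 11 were called higher and none lower, with a median difference of 0.71. Aldh1a3, which makes retinoic acid, read 11.33 and 11.25 against 6.14 to 6.64, while Aldh1a1, of the same function, read 7.25 and 7.29 against 2.88 to 3.37. The pair differed on the arrays in neither group, where Aldh1a3 lay midway at 8.74 to 8.90 and Aldh1a1 lay at the Krt8-high level, at 6.97 to 6.99. The glutathione transferase Gsta4 read 8.97 and 10.10 against 5.65 to 5.90, and the aldo-keto reductase Akr1b8 differed by 3.72. Cell cycle and DNA replication genes gave 2 calls among 42, both higher (4.76%, against 8.06% of all genes), with a median of 0.05. Nothing is read about the list from so small a share. The called genes were 2 inhibitors of the cycle, Cdkn2a at 7.12 and 6.74 against 3.16 to 3.44 and Cdkn2b at 7.26 and 7.97 against 4.76 to 5.22. Mcm6 and Ccnd1 read 1.68 and 1.24 higher on average and were not called. Of 22 p53 target genes, 4 were called higher, namely Perp, Sfn, Zmat3 and Polk, and the first pair encode epithelial proteins of the desmosome and of keratinocytes.

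Of 36 glycolysis and hypoxia genes, 3 were called higher (8.33%, against 8.06% of all genes) and 1 lower, and the median was -0.42. The genes called higher were the collagen hydroxylase P4ha2 and the carbonic anhydrases Car12 and Car9, with differences of 3.04, 2.08 and 1.35. Without overlap 20 of the 36 lay below, against 41.9% of all genes. Of 12 reference genes often used for scaling, 1 was called higher (8.33%, against 8.06% of all genes), and the median difference was 0.24. The called gene was Tubb5, at 9.38 and 9.35 against 8.07 to 8.13. Only 1 of the 2 Tubb5 probe sets past the filter had this call.

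**Figure D4:**
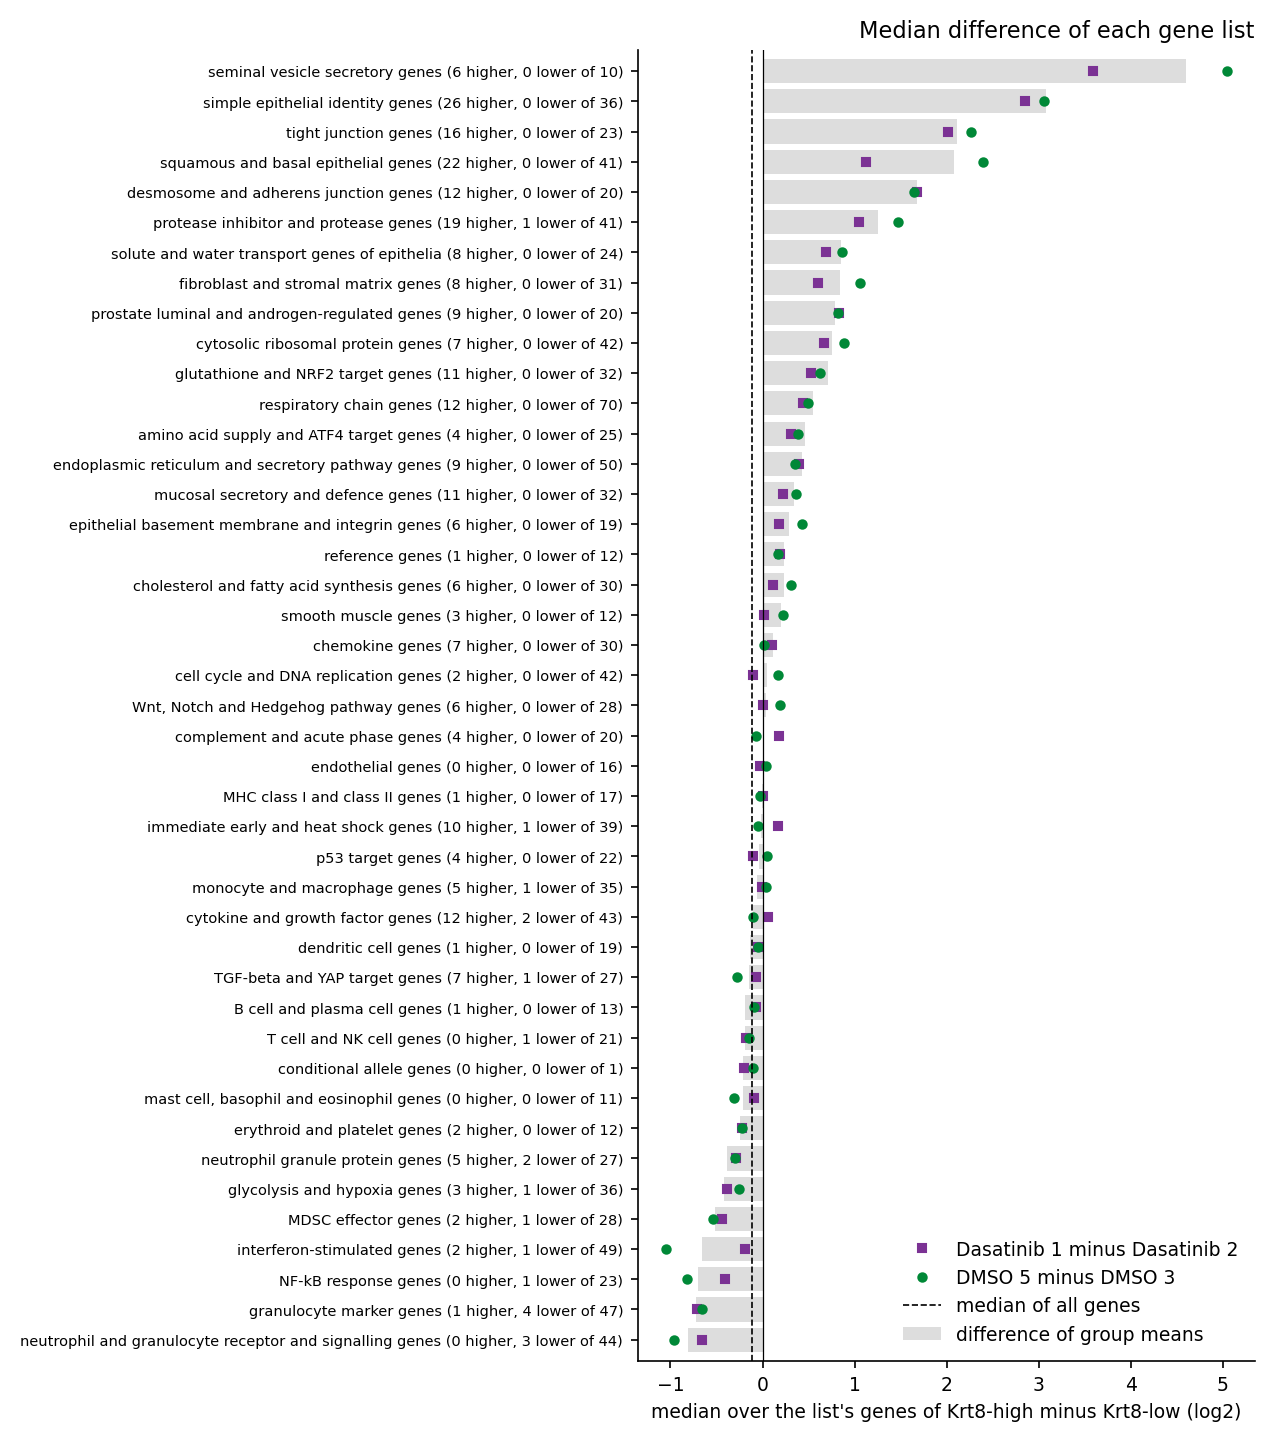
Median over the genes of each list of the Krt8-high minus Krt8-low difference (log2, horizontal axis): grey bars give the difference of group means, squares Dasatinib 1 minus Dasatinib 2, circles DMSO 5 minus DMSO 3, and the dashed line the median of all genes at -0.12. Counts of genes called higher and lower stand beside each list. Seminal vesicle genes are at the top with 4.59, which the filter fixes in part. Granulocyte receptor genes are at the bottom with -0.81.

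The genes of the sorted cells themselves were lower, mostly by less than a call required. S100a8 and S100a9, calcium-binding proteins of the neutrophil lineage, were bright on all arrays. S100a8 read 13.53 and 13.76 against 13.67 to 13.77, and S100a9 read 13.69 and 14.05 against 13.96 to 14.05. These values are near the top of the scale, and the groups overlapped there. Csf3r, the receptor for G-CSF, read 11.62 and 11.64 against 12.49, 12.40 and 12.42. Arrays of both groups therefore held RNA of the neutrophil lineage. S100a8, S100a9 and Csf3r were named after their values were seen. Of 47 granulocyte marker genes kept, 4 were called lower and 1 higher, but 40 lay below without overlap, against 41.9% of all genes, and the median difference was -0.73. The list's median was 11.16 on Dasatinib 1 and 11.55 on DMSO 5, 12.30 to 12.33 on the Krt8-low arrays and 12.29 to 12.40 on the arrays in neither group.

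The granulocyte genes called lower were Cybb, Hdc, Trem1 and Slfn1, and the one called higher was Pglyrp1, a peptidoglycan-binding granule protein that differed by 1.53 and was named after its value was seen. Cybb, the catalytic subunit of the phagocyte oxidase, read 8.55 and 8.69 against 10.12, 10.00 and 9.96. Hdc, which makes histamine, read 10.50 and 10.41 against 11.60 to 11.68, and Trem1, an amplifier of inflammatory signals, read 10.64 and 10.91 against 11.98 to 12.03. Slfn1 read 7.77 and 7.51 against 8.87 to 9.15. The groups did not overlap in these genes, and for Trem1 the arrays in neither group were level with the Krt8-low ones, at 11.84 to 12.05. Of 44 receptor and signalling genes of neutrophils, 3 were called lower and none higher, and the median difference was -0.81. Without overlap 39 lay below, against 41.9% of all genes. Pirb and Cd33, both inhibitory receptors, read 9.07 and 8.96 against 10.39 to 10.45 and 8.84 and 8.75 against 10.02 to 10.31, and the Fc receptor Fcgr4 read 8.29 and 8.27 against 9.45 to 9.79. Cd300lf was 1.07 lower on average, short of a call.

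Granule protein genes went both ways. Of 27 kept, 5 were called higher and 2 lower, with a median difference of -0.38. Ltf, the iron-binding lactoferrin, which glandular epithelium also makes, read 12.48 and 12.30 against 9.50, 9.29 and 9.51 and stood at 12.82 to 12.94 on the arrays in neither group. Chil3, a chitinase-like protein of neutrophils and macrophages that was named after its value was seen, was lower, at 5.90 and 6.29 against 7.67 to 8.04. Serpinb1a, an inhibitor of neutrophil elastase, differed by 2.94, and Anxa1, an annexin of neutrophils and epithelium, read 13.72 and 13.61 against 11.37 to 11.71. Arg1, the arginase by which suppressor cells deplete arginine, read 9.39 and 9.29 against 7.93, 8.05 and 8.07, yet 12.38, 12.32 and 12.37 on Dactolisib 1, DMSO 2 and DMSO 4. Its order was thus not that of Krt8, and the arrays in neither group stood apart from both others. Of 28 effector genes of suppressor cells kept, 2 were called higher (7.14%, against 8.06% of all genes), Arg1 and Ido1, and 1 lower, Cybb. The list's median difference was -0.51. Without overlap 18 lay below, against 41.9% of all genes. Ido1, which degrades tryptophan, read 6.86 and 5.76 against 4.18 to 4.35.

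Among the 80 genes called lower, Prkd3, a protein kinase D, had the widest gap, reading 8.84 and 8.76 against 10.95, 10.87 and 10.83. Nfkbib, an inhibitor of NF-kB, read 8.30 and 8.22 against 10.21, 10.11 and 10.12. Ripor2 read 7.47 and 7.82 against 9.84, 9.66 and 9.61. In each of these 3 the Krt8-high arrays were level and the arrays in neither group lay between the groups. Cd247, the zeta chain of T cell and NK cell receptors, read 3.67 and 3.76 against 5.49 to 5.70, and Il12a, a subunit of interleukin 12, read 4.76 and 5.37 against 7.07 to 7.61. The interferon-inducible genes Ifi207, Ifi204 and Ifitm6 differed by -2.07, -1.60 and -1.81, the lymphocyte antigen family member Ly6i by -2.07, and the purine receptor P2ry12 by -1.49. Muc3 and Efr3b had larger mean differences, -2.73 and -2.38, but were uneven on the Krt8-high arrays, where Muc3 read 6.96 and 5.06. Ccdc122, Ambp and Izumo1 completed the genes with the 15 widest gaps below.

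Pttg1, which encodes securin and was named after its value was seen, was called lower on the Krt8-high arrays but did not follow Krt8. It read 10.24 and 10.96 there, 12.22, 12.24 and 12.23 on the Krt8-low arrays and 10.22 to 10.31 on the arrays in neither group. The 3 Krt8-low arrays stood alone in this gene, and its 3 probe sets past the filter were all called lower. Other genes were less uniform, and those given here are examples. Among probe sets past the filter, 1 of 3 had the gene's call for Tgfa and Krt13. For Lif, Plat, Lama3, Lbp, Polk and Efr3b it was 1 of 2, and for Prkd3 it was 2 of 3. Izumo1 had the form of Pttg1 across the arrays, with 6.36 to 6.44 on the Krt8-low arrays and 4.50 to 4.60 on the arrays in neither group.

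NF-kB response genes were lower without often being called. Of 23 kept, 1 was called lower and none higher, and the median difference was -0.70. Without overlap 20 lay below, against 41.9% of all genes. Irak3, which damps Toll-like receptor signals, read 10.22 and 10.25 against 11.77, 11.66 and 11.63. Traf1, Rel and Zc3h12a differed by -1.26, -1.11 and -1.20 on average and missed the call. The list's median difference was -0.41 within Dasatinib and -0.82 within DMSO.

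Interferon-stimulated genes were lower on both Krt8-high arrays in many cases, and much more so on DMSO 5 than on Dasatinib 1. Of 49 kept, 2 were called higher (4.08%, against 8.06% of all genes), Phf11d and Iigp1, and 1 was called lower, Ifi204. Without a minimum gap 29 of the 49 lay below and 5 above, against 41.9% and 29.3% of all genes. The median difference of group means was -0.66. That median was -0.19 within Dasatinib and -1.05 within DMSO. In the DMSO pair 30 of the 49 genes were lower by at least 1 on the log2 scale and 2 higher, while in the Dasatinib pair 1 was lower and 5 were higher by as much. The list's median was 9.60 on Dasatinib 1, 9.42 to 9.46 on the Krt8-low arrays, 8.52 on DMSO 5 and 8.58 to 8.81 on the arrays in neither group. Dasatinib 1 was above DMSO 5 in 48 of the 49 genes. By its list median Dasatinib 1 was thus close to the Krt8-low arrays and DMSO 5 to the arrays in neither group, and treatment and array cannot be told apart here, with 1 array of each treatment in the group.

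Genes of other immune cells and chemokine genes gave mostly higher calls, as did all genes, with 8.06% higher and 0.562% lower. The share called higher was 23.3% for chemokine, 16.7% for erythroid and platelet and 14.3% for monocyte and macrophage genes. For B cell, MHC and dendritic cell genes it was 7.69%, 5.88% and 5.26%, below that of all genes. Of 35 monocyte and macrophage genes, 5 were called higher and 1 lower, with a median of -0.06. Without overlap 13 lay above and 10 below, against 29.3% and 41.9% of all genes. C1qa, a complement subunit made by tissue macrophages, read 9.05 and 9.13 against 7.27, 7.44 and 7.60, Mrc1, the mannose receptor, read 6.10 and 6.56 against 4.49 to 4.72, Apoe read 11.12 and 10.93 against 9.49 to 9.78, and the monocyte attractant Ccl7 differed by 1.38. Of 30 chemokine genes, 7 were called higher and none lower. Cxcl17, a mucosal chemokine, read 10.17 and 9.55 against 6.29 to 6.48, Cxcl5, an attractant of neutrophils, read 10.18 and 10.46 against 6.88 to 7.22, and Ccl8 differed by 2.83. Ppbp, a chemokine of platelets, read 8.16 and 10.46 against 6.12 to 6.19 and was highest on the arrays in neither group, at 11.78 to 11.91. Of 12 erythroid and platelet genes Ppbp and Car2 were called higher, Car2 by 2.48, and of 13 B cell and plasma cell genes Sdc1 alone was called, higher by 3.09. Car2 and Sdc1 are also made by epithelium. Of 19 dendritic cell genes the one called was Ly6d, shared with the squamous list, and the next by gap, Cd209a, read 5.23 and 5.11 against 4.81 to 5.02. Of 17 MHC genes H2-Aa alone was called, at 9.96 and 9.27 against 8.12 to 8.27. Among probe sets past the filter, 2 of 4 had the call for H2-Aa and 1 of 2 for Cd247. T cell and NK cell genes gave the single call of Cd247 among 21 and a median of -0.19, and 11 mast cell, basophil and eosinophil genes gave none, with Siglecf at 7.13 and 6.32 against 7.56 to 7.80.

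The difference was much the same size in both treatments for the called genes, as the call rule requires each pair to differ by at least 1. The median over the genes called higher was 1.90 within Dasatinib and 1.99 within DMSO, and over those called lower -1.32 and -1.36. Over all genes the median absolute difference between the 2 Krt8-high arrays was 0.16 on the log2 scale. The 3 Krt8-low arrays had a median range of 0.19. A range of 3 arrays is wider by construction than a difference of 2, so these values are not on one scale. Between Dasatinib 1 and DMSO 5, 210 genes differed by at least 1, of which 113 were higher on Dasatinib 1 and 97 on DMSO 5, and 30 genes had a range of at least 1 on the Krt8-low arrays.

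The 10 genes that differed most between the Krt8-high arrays included secretory products, matrix and keratin genes. Prol1, a secretory protein of lacrimal and salivary glands, read 9.41 on Dasatinib 1 and 3.47 on DMSO 5, with 3.39 to 3.81 on the other 6 arrays. The gene 2310057J18Rik read 9.78 and 4.28, with 4.30 to 4.54 elsewhere, and Smr2, of the same submaxillary gland protein family as Prol1, read 8.51 and 5.66. These 3 were raised on Dasatinib 1 alone among the 8 arrays. In the other direction Svs5 was lower on Dasatinib 1 by 4.41, Svs4 by 2.61, the matrix protein Postn by 2.60 and Lgals4, a galectin of gut epithelium, read 4.60 and 7.55. Ctse, the protease cathepsin E, read 7.04 on Dasatinib 1 and 9.80 on DMSO 5, where the Krt8-low arrays read 9.54 to 9.76. Clba1 read 9.89 and 6.21, and DMSO 5 alone was low, with 9.43 to 10.16 on all other arrays.

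**Figure D5:**
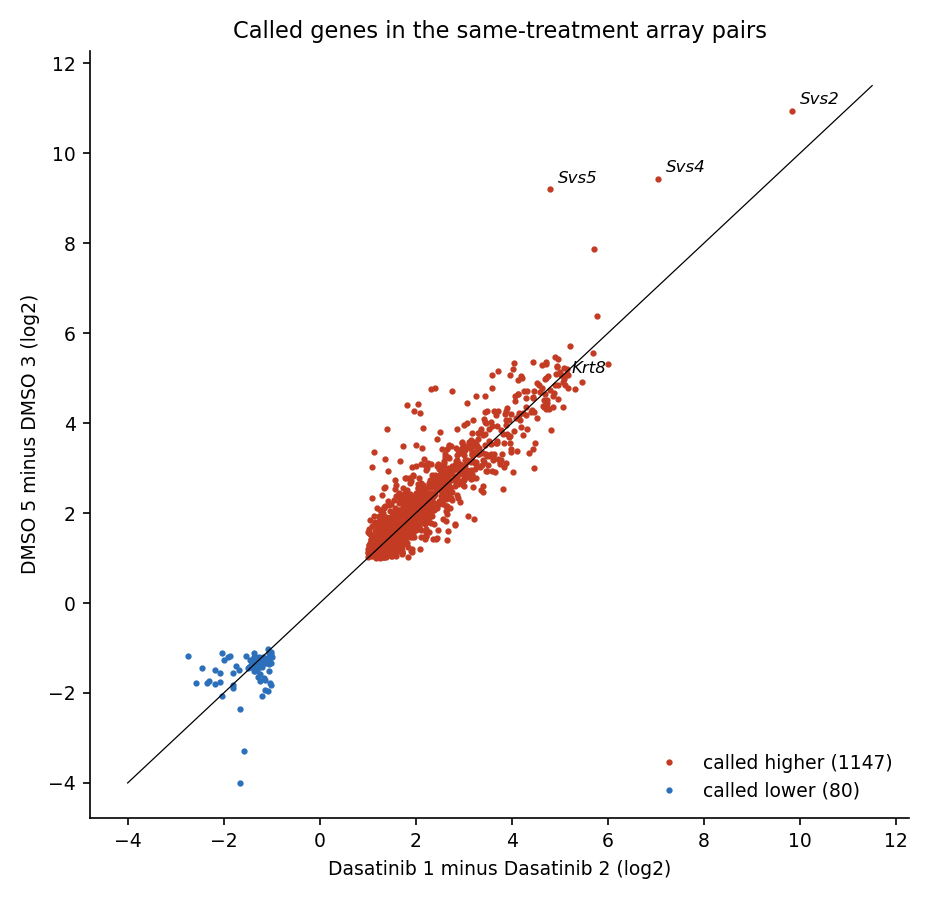
Difference of DMSO 5 minus DMSO 3 (log2, vertical axis) against Dasatinib 1 minus Dasatinib 2 (log2, horizontal axis) for the 1147 genes called higher (red) and the 80 called lower (blue); the line marks equality. Most genes lie near the line and Svs5 lies well above it, with a larger difference within DMSO.

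The 3 arrays in neither group divided the called genes. Of the 1147 genes called higher, 597 had a position under 0.25 there, close to the Krt8-low arrays, 479 lay from 0.25 to 0.75 and 71 lay over 0.75, and the median position was 0.24. Of those 71, 30 had a higher mean there than on the Krt8-high arrays. For the 80 genes called lower the counts were 40, 34 and 6, with a median of 0.26. On all 3 of these arrays at once, 767 genes called higher and 44 called lower lay strictly between the groups. Over whole lists the median position was 0.16 for the secretory pathway and 0.33 for the basement membrane and integrin genes. It was 0.39 for the desmosome, 0.40 for the tight junction, 0.44 for the simple epithelial and 0.96 for the squamous genes. Members of a list differed, and 6 of the 16 tight junction genes called had a position under 0.25. The position of the seminal vesicle genes was fixed in part by the filter.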

How the data were processed

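RNA of Gr-MDSCs from prostate tumors was hybridised to 8 Affymetrix arrays, 2 of Dactolisib, 2 of Dasatinib and 4 of DMSO. The authors deposited 1 log2 signal per probe set and array. The study's methods name the oligo package and the submitters' processing notes name MAS5, with no version, and scale and centring are known only from the values, whose array medians nearly coincide. Such scaling sets each gene against the whole array, so that more RNA of one kind can lower all other signals. Of 45101 probe sets, 34945 had 1 gene in the platform annotation, 932 had several and 9160 had none, and 64 controls were left out. Symbols were updated to RefSeq, GRCm38.p6.

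Arrays were grouped by Krt8, and descriptive calls were made as given in the text, with no test. Python 3.11.15 with pandas 2.3.3, numpy 2.4.6 and matplotlib 3.10.9 was used, and the call rule was tested on simulated data. The members and the 43 gene lists were chosen with earlier results of these data known. Genes named were the markers, the 15 with the widest gap in each direction, up to 4 per list with the widest gap, the 10 that differed most between the Krt8-high arrays, and Smad4 with the control probe sets, besides those said to be chosen after their values were seen. Alternatives covered normalization, an added constant, a floor, the filter, centring, the minimum gap, probe set choice, within-treatment differences and leaving out each array. The number of arrays limits the precision, since each group held 2 or 3. A further part of the genotype is not reported here.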

Additional observations from a re-analysis of the deposited data

Results flagged for a closer look

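Within the 4 DMSO arrays, DMSO 5 stood far from the other 3, in the sense that its distance to the nearest array took up most of the range of the 4. As a share of that range the distance was 0.995 for Svs2 and 0.954 for Svs5. For list medians it was 0.972 for the seminal vesicle genes, which the filter fixes in part, and 0.929 for the granulocyte marker genes. The Wnt, Notch and Hedgehog genes had 0.910 and the prostate luminal genes 0.893, a value that the filter also fixes in part. It was 0.886 for the endoplasmic reticulum and secretory pathway genes, 0.848 for the complement and acute phase genes, 0.846 for the cholesterol and fatty acid synthesis genes and 0.843 for the glutathione and NRF2 target genes. These were 10 of 47 lists and genes examined in this way. The count cannot be set against the chance rate of about 1 in 20. DMSO 5 was the only DMSO array put among the Krt8-high arrays, and its own values put it there. The lists also share genes and were read on the same 4 arrays, so they are not separate trials. Nothing is concluded from the count.

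For 8 lists the median difference had one sign within Dasatinib and the other within DMSO, all close to 0. The DMSO median less the Dasatinib median was 0.065 for endothelial, 0.048 for monocyte and macrophage and -0.033 for MHC genes. It was -0.168 for cytokine and growth factor, -0.219 for immediate early and heat shock and 0.272 for cell cycle genes. For p53 targets it was 0.152 and for complement and acute phase genes -0.248. With 1 array on each side of each pair these differences were not tested.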

How the results depend on the processing

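The counts of probe sets called depended on the call rule and on the centring. Against 1993 higher and 179 lower, adding 32 on the linear scale gave 1279 and 80, only the 15012 probe sets with the highest means gave 1147 higher, and a gap of log2 2 gave 757 and 3. With no minimum gap the balance turned, at 7597 higher and 13910 lower, a difference of group means of log2 1 gave 703 lower, and the same call within both treatments gave 284 lower. Centring on the granulocyte markers gave 6259 and 4. Leaving out 1 array at a time gave 2061 to 2422 higher and 214 to 757 lower, the last without Dasatinib 1. A wider or narrower gap, fewer probe sets and fewer arrays act on the counts by construction, and the cause of the other changes was not tested. List medians near 0 were the least stable in sign, with 6 of 44 turning in those 15012 probe sets, 7 without DMSO 5 and 19 with centring. No paired analysis was possible because the Krt8-high arrays have the replicate numbers 1 and 5 and the Krt8-low arrays 2 and 3, so that no number is shared, and pairs of the same treatment were compared instead. Low signals near the array's floor limit the differences that could be read for genes that are dim on the Krt8-low arrays.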
